A study of Homo sapiens with 6 samples.

Results

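The 10 genes described here are NFE2L2, KEAP1, HMOX1, FTH1, NQO1, TXNRD1, SRXN1, SLC7A11, GCLM and GPX4, which act in the oxidative stress response run by the transcription factor NRF2, in the glutathione system and in the defence against ferroptosis. They were taken by name from the 38637 genes of the deposited expression table, in which each of them has 1 row. OVCAR8 is a human ovarian cancer cell line, labelled wild type, and 3 samples were treated with the solvent DMSO and 3 with 2 nM pladienolide B for 72 h. Pladienolide B inhibits SF3B1, a core protein of the U2 part of the spliceosome, and the comparison asked how inhibition of SF3B1 changed the RNA of these cells. The RNA was selected for poly(A) tails and sequenced. All cells came from 1 cell line, and the labels do not say whether the 3 samples of a group came from separate cultures, so every p-value measures the spread between these samples, which may be technical.

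NRF2, the protein of NFE2L2, is held by KEAP1, which delivers it to an E3 ubiquitin ligase built on CUL3 for degradation. Electrophiles and oxidants modify cysteines of KEAP1, NRF2 then accumulates, and with small MAF proteins it binds antioxidant response elements of genes for glutathione synthesis, thioredoxin reduction, quinone reduction, heme breakdown and iron storage. Ferroptosis is a form of cell death driven by iron-dependent peroxidation of membrane lipids, and GPX4, a selenoprotein, counters it by reducing lipid hydroperoxides with glutathione, whose synthesis depends on the cystine that SLC7A11 brings into the cell.

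Antioxidant response elements contain the letters TGAC, then any 3 bases, then GCA, and this motif was searched on both strands in the 1000 bases upstream of RefSeq transcription starts (GRCh38), which were available for 7 of the 10 genes. A gene has a window for each annotated start, and 4 of the 12 windows of these 7 genes held the motif, beside 9.71% of 35116 such windows in all. They were windows of KEAP1, NQO1, GCLM and TXNRD1, of which KEAP1 and TXNRD1 each have another window without it, and no window of NFE2L2, SRXN1 or GPX4 held it. HMOX1, FTH1 and SLC7A11 had no window in the table. Partner genes and some regulators followed below were also searched. Of these, PRDX1 had no window, BACH1, CUL3, FTL, SLC3A2 and TXN had no match, and GCLC and SQSTM1 had a match in 1 window each. These sites are shown because they are the regulatory letters by which NRF2 targets are usually recognised, and capitals mark the fixed bases of the motif. Each is written 5′ to 3′ on the strand that carries the match.
GCLM (chr1:93909446-93909475, plus strand): tggaagacaaTGACtaaGCAgaaatcgtag
KEAP1 (chr19:10502784-10502813, plus strand): caggtcaccaTGACtaaGCAgagccgggcg
NQO1 (chr16:69726996-69727025, minus strand): gcagtcacagTGACtcaGCAgaatctgagc
TXNRD1 (chr12:104286919-104286948, minus strand): agagtcagaaTGACaaaGCAgaaatccact
SQSTM1 (chr5:179820542-179820571, minus strand): ggcctggccaTGACtcaGCAatatcctcag
GCLC (chr6:53545953-53545982, plus strand): aaatatgtgtTGACagaGCAatgacctgtc
The motif lay 26 bases upstream of the RefSeq start of GCLM, 23 upstream of that of KEAP1, 94 upstream of that of TXNRD1, 344 upstream of that of SQSTM1, 446 upstream of that of NQO1 and 862 upstream of that of GCLC, counted from the start whose window held it. In the GENCODE annotation the GCLM, KEAP1 and TXNRD1 sites fell in an exon of a longer transcript of the same gene, the SQSTM1 and GCLC sites in an intron of the same gene and the NQO1 site in an exon of NQO1-DT, the transcript that runs the other way from the same promoter region. The GCLM and KEAP1 sites share the middle letters taa. The NQO1 and SQSTM1 sites have tca there and so also contain TGACTCA, the AP-1 motif, a form that 0.436% of all windows hold. A match describes letters and is not evidence of binding.

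Values are adjusted reads, which are read counts that the authors scaled to a common library size with edgeR before deposition. The 6 libraries held 22621338 to 26130882 reads on genes, recovered exactly from the deposited values. Differences were tested with limma on log2(adjusted reads + 1) over the 16178 genes that passed a filter on low values, and an adjusted p is the Benjamini-Hochberg value over all of them, with 0.05 as the threshold for a call. Among genes with a mean of at least 50 adjusted reads, the DMSO replicate 2 library lay at least 1.5-fold from both other libraries of its group at 77 of 13211 genes, against 22 to 42 genes for the other 5 libraries, and SLC7A11 was among the 77, so results are also given without that library where it changes a call. Of the epithelial and ovarian markers, PAX8 (4011 to 4581 adjusted reads), KRT7, KRT8 and KRT18 were high. EPCAM had 431 to 513 adjusted reads and CLDN4 18.7 to 60.3. WT1, MUC16, KRT19, CDH1 and CLDN3 stayed under 50 adjusted reads in every sample. The summed level of the 11 epithelial and ovarian markers was 75713 to 81883 with DMSO and 77608 to 92857 with pladienolide B. Of these 11, 5 were called. KRT8, KRT18, CDH1 and CLDN4 were higher (log2 fold changes of 0.27, 0.29, 0.67 and 1.16, the last 2 from DMSO means of 23.8 and 24.7) and KRT7 was lower (-0.64). Of the immune markers, CD3E was at 0 in all samples and PTPRC and MS4A1 reached at most 2 adjusted reads. The summed level of the 6 immune markers was 1100 to 1258 with DMSO and 1499 to 1605 with pladienolide B, nearly all from CD68, a lysosomal protein gene that is not limited to macrophages. CD68 was called higher (log2 fold change 0.41, adjusted p 2.4e-05 by limma). The 7 fibroblast markers summed to 6969 to 7153 and 5920 to 6580, nearly all from COL1A1, and the 4 endothelial markers to 60 to 83 and 82 to 114. COL1A1 and PDGFRB were called lower (log2 fold changes -0.21 and -0.34, adjusted p 0.0014 and 0.026 by limma), and no endothelial marker was called. The part of these markers' changes in the results was not tested. In bulk RNA, fewer cells of a kind and less RNA per cell cannot be told apart.

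Pladienolide B changed these genes in different directions. All 10 passed the filter on low values, and 6 were called by limma, 5 higher (TXNRD1, HMOX1, FTH1, GCLM and NQO1) and 1 lower (SLC7A11). Over all genes tested, 47.6% were called, 22.4% higher and 25.2% lower. On the log2 scale the median difference was 0.13 for the 10 genes and -0.0042 for all genes tested. With all 6 samples no member reached a 2-fold change with an adjusted p under the threshold, which 3.93% of all genes tested did, but SLC7A11 did without DMSO replicate 2 (log2 fold change -1.23, limma adjusted p 1.7e-13). TXNRD1 had 1.74-fold as many adjusted reads after treatment, and SLC7A11 had 53.6% of its DMSO mean. By limma with all 6 samples their log2 fold changes were close in size, 0.80 and -0.78, and 7.25% and 7.73% of all genes tested had a larger one in either direction, while by edgeR SLC7A11 changed more (-0.90 against 0.80). Without limma's variance trend the calls of HMOX1, GCLM, NQO1 and SLC7A11 were lost (adjusted p 0.091, 0.087, 0.16 and 0.16), and SLC7A11 was not called by DESeq2 on the recovered reads (adjusted p 0.076). Values of the treated and the DMSO samples did not overlap for TXNRD1, FTH1, HMOX1, GCLM and SRXN1, which is 5 of 10 beside 55.3% of all genes tested.

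**Figure D1:**
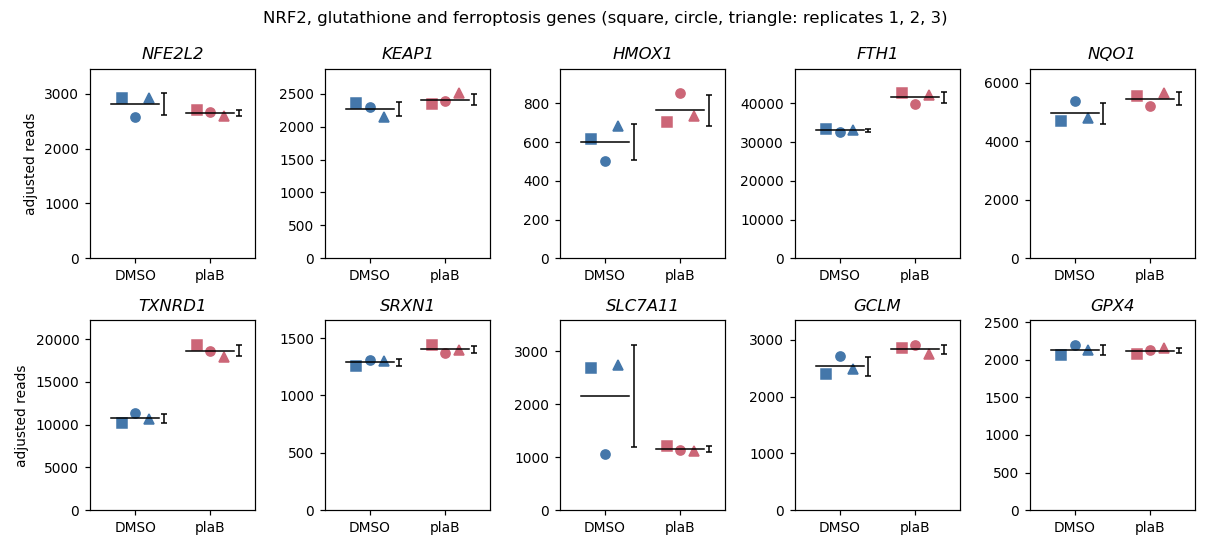
Adjusted reads (vertical axes from 0, a separate scale per gene) of the 10 genes in each of the 3 DMSO and 3 pladienolide B (plaB) samples. Squares, circles and triangles are replicates 1, 2 and 3, horizontal lines are group means and bars are SDs. TXNRD1 and FTH1 separate by group with little spread, GPX4 lies at one level, and the DMSO replicate 2 circle of SLC7A11 (1053) lies below every treated sample.

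The regulators NFE2L2 and KEAP1 were not called. NFE2L2 (chr2:177230303-177265131, minus strand) had 2926, 2588 and 2932 adjusted reads with DMSO and 2710, 2664 and 2594 with pladienolide B. The treated samples lay within the range of the DMSO samples, whose replicate 2 was the lowest of all 6. The log2 fold change was -0.08 (SE 0.05), with a 95% interval of -0.19 to 0.03 and an adjusted p of 0.21 by limma. Without DMSO replicate 2 it was -0.14 with an adjusted p of 0.0066 by limma, so the absence of a call rests on that library. Leaving out the lowest DMSO sample had to lower the log2 fold change, so this value is no separate support for a fall. Every other alternative fit left NFE2L2 uncalled (adjusted p 0.20 to 0.51 by limma, edgeR or DESeq2). KEAP1 (chr19:10486125-10503356, minus strand) had 2355, 2293 and 2148 adjusted reads with DMSO and 2341, 2382 and 2506 with pladienolide B. Its groups overlapped by the DMSO replicate 1 value, and the log2 fold change was 0.09 (SE 0.05, 95% interval -0.01 to 0.19, adjusted p 0.15 by limma).

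Some genes around this pair were called and others were not. SQSTM1, which encodes p62, an autophagy receptor that binds KEAP1, had 19234, 17502 and 19719 adjusted reads with DMSO and 27919, 30379 and 26637 with pladienolide B. All treated samples were above all DMSO samples, and the log2 fold change was 0.59 (SE 0.05, adjusted p 1.2e-07 by limma). BACH1, the repressor that competes with NRF2 at the same elements and is known for holding HMOX1 down, fell from 2222 ± 167 to 1775 ± 133 adjusted reads (SD, n = 3), a log2 fold change of -0.32 (limma, adjusted p 3.8e-04). CUL3 had 2301 ± 98.3 adjusted reads with DMSO and 2121 ± 94.8 with pladienolide B, which did not pass the threshold (adjusted p 0.063 by limma). Of the other tested genes that act on NRF2 or pair with it, 10 of 18 were called, 5 higher and 5 lower. The share called was 55.6%, beside 47.6% of all genes tested, and the median log2 fold change of these 18 was 0.0045. The 4 of them with the largest changes were SQSTM1, DPP3, PGAM5 and MAFF. DPP3, a peptidase that binds KEAP1, fell from 1381 ± 21.9 to 927 ± 22.6 adjusted reads, a log2 fold change of -0.57. PGAM5, a mitochondrial phosphatase that binds KEAP1, rose by 0.46, and MAFF, a small MAF protein, rose by 0.43 on the log2 scale.

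The heme and iron genes HMOX1 and FTH1 were both called higher. HMOX1 (chr22:35381096-35394207, plus strand), the stress-inducible heme oxygenase that frees iron from heme, had 616, 502 and 685 adjusted reads with DMSO and 704, 852 and 735 with pladienolide B. The groups did not overlap, but the gap between the highest DMSO and the lowest treated sample was small beside the SDs of 92.4 and 78.1. Its log2 fold change was 0.35 (SE 0.10, adjusted p 0.0067 by limma), and without pladienolide B replicate 2, the highest sample, it was 0.27 with an adjusted p of 0.058. Leaving out DMSO replicate 2, the lowest sample, gave 0.23 with an adjusted p of 0.022.

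FTH1 (chr11:61964285-61967634, minus strand), the ferritin heavy chain that oxidises iron for storage, had 33359, 32698 and 33007 adjusted reads with DMSO and 42603, 39817 and 42233 with pladienolide B. Every treated sample was above every DMSO sample, by far more than the SDs of 331 and 1513. This gave a log2 fold change of 0.33 (SE 0.04, 95% interval 0.24 to 0.42, adjusted p 5.1e-06 by limma), and it stayed between 0.31 and 0.36 when any 1 sample was left out. BEST1 overlaps FTH1 on the opposite strand and was listed at 40.4% of the FTH1 mean with DMSO and 39.5% with pladienolide B, and its log2 fold change was 0.30. Whether the counting used strand is not given in the sources used here, so reads of the 2 genes cannot be told apart, and the level of FTH1 is uncertain by that amount. Summed over both genes the log2 ratio of the group means was 0.32. FTL, the ferritin light chain, rose from 18747 ± 451 to 27171 ± 948 adjusted reads, a log2 fold change of 0.54 (SE 0.04, limma, adjusted p 1.9e-08).

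Of 35 other tested genes of iron and heme handling, 19 were called, 9 higher and 10 lower. These 19 were 54.3% of the list, beside 47.6% of all genes tested, and the list's median log2 fold change was -0.021. FTL and ALAS1, the enzyme that starts heme synthesis, rose, ALAS1 from 4308 ± 181 to 6257 ± 120 adjusted reads (log2 fold change 0.54). UROD, a later enzyme of the same pathway, fell from 1568 ± 119 to 1047 ± 76.4 (log2 fold change -0.58), and HFE, a regulator of iron uptake, fell from 187 ± 17.4 to 113 ± 5.78 (log2 fold change -0.72). TFRC, the transferrin receptor that brings iron into the cell, and NCOA4, the receptor that sends ferritin for degradation, were picked after their values were seen. TFRC fell from 12776 ± 372 to 9818 ± 405 adjusted reads (log2 fold change -0.38, adjusted p 1.3e-06 by limma), and NCOA4 rose from 9819 ± 220 to 11045 ± 213 (log2 fold change 0.17, adjusted p 0.0016 by limma).

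Of the quinone and thioredoxin genes, TXNRD1 rose well beyond its spread and NQO1 by little. TXNRD1 (chr12:104215779-104350307, plus strand), the selenoprotein that reduces cytosolic thioredoxin with NADPH, had 10236, 11329 and 10635 adjusted reads with DMSO and 19304, 18676 and 17979 with pladienolide B. The lowest treated sample was far above the highest DMSO sample. The log2 fold change was 0.80 (SE 0.04, 95% interval 0.70 to 0.89, adjusted p 4.5e-10 by limma), and with any 1 sample left out it lay between 0.76 and 0.84. EID3, which overlaps TXNRD1 on the same strand, had 6 to 19 reads per library.

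NQO1 (chr16:69709401-69726560, minus strand), which reduces quinones by transferring a pair of electrons, had 4707, 5368 and 4813 adjusted reads with DMSO and 5547, 5198 and 5642 with pladienolide B. Its groups overlapped, since DMSO replicate 2 exceeded pladienolide B replicate 2. The change on the log2 scale was 0.14 (SE 0.05, 95% interval 0.03 to 0.25, adjusted p 0.032 by limma). Leaving out DMSO replicate 1 gave an adjusted p of 0.15, DMSO replicate 3 gave 0.12, pladienolide B replicate 1 gave 0.11 and pladienolide B replicate 3 gave 0.13, so the call needs each of these 4 libraries.

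SRXN1 (chr20:646615-653200, minus strand), sulfiredoxin, which repairs over-oxidised peroxiredoxins, had 1255, 1310 and 1302 adjusted reads with DMSO and 1438, 1372 and 1394 with pladienolide B. The groups did not overlap, yet the log2 fold change of 0.12 (SE 0.05) missed the threshold with an adjusted p of 0.06 by limma. Without DMSO replicate 2 the value was 0.13 with an adjusted p of 0.036, and with all samples the edgeR alternative (quasi-likelihood) gave an adjusted p of 0.047.

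The partners of these enzymes moved differently. TXN, the thioredoxin that TXNRD1 reduces, fell from 8649 ± 852 to 6650 ± 345 adjusted reads, a log2 fold change of -0.38 (limma, adjusted p 4.8e-05). PRDX1, a peroxiredoxin that SRXN1 acts on, had 12440 ± 888 and 11990 ± 261 adjusted reads and was not called (adjusted p 0.4 by limma). Of the 24 tested thioredoxins, peroxiredoxins, dismutases and related enzymes, TXN and PRDX1 included, 9 were called, 1 higher and 8 lower. These 9 were 37.5%, beside 47.6% of all genes tested, and the median log2 fold change of the 24 genes was -0.083. Without DMSO replicate 2, 12 of the 24 were called, 2 higher and 10 lower, when 48.4% of all genes tested were called. Besides TXN, the named ones were MSRA, a methionine sulfoxide reductase (-0.53), catalase CAT (-0.36) and PON2, a paraoxonase that limits mitochondrial superoxide (-0.28), all on the log2 scale. MSRA had 247 ± 12.7 adjusted reads with DMSO and 172 ± 25.2 with pladienolide B, CAT 969 ± 47.7 and 760 ± 92.2, and PON2 691 ± 45 and 567 ± 20.1.

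Among other detoxification and NADPH-generating genes known as NRF2 targets, 14 of 26 tested were called, 5 higher and 9 lower. The share called was 53.8%, beside 47.6% of all genes tested, and the median log2 fold change was -0.089. PIR, an iron-binding nuclear protein, had 112 ± 11 adjusted reads with DMSO and 57.7 ± 7.71 with pladienolide B, a log2 fold change of -0.95. ABCC4, an export pump, fell by 0.56 on the log2 scale from 1197 ± 82.1 adjusted reads, and ME1, the cytosolic malic enzyme that makes NADPH, fell by 0.51 from 1522 ± 41.7. AKR1C3, an aldo-keto reductase, had 84.4 ± 14.3 and 55.4 ± 12.3 adjusted reads, a log2 fold change of -0.61, and its near-identical AKR1C relatives make its counts uncertain. Without DMSO replicate 2 AKR1C3 was at -0.48 (limma adjusted p 0.083), and without pladienolide B replicate 3 at -0.43 (0.10).

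**Figure D2:**
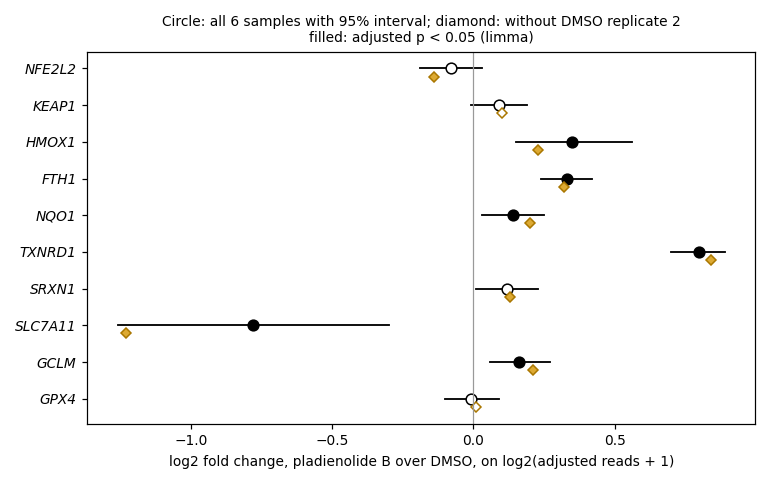
Log2 fold change (pladienolide B relative to DMSO) for each of the 10 genes (horizontal axis, on the log2(adjusted reads + 1) scale). Circles use all 6 samples and lines are 95% intervals from limma, diamonds leave out DMSO replicate 2, and filled symbols have an adjusted p under 0.05. SLC7A11 moves from -0.78 to -1.23 without that library, and NFE2L2 and SRXN1 become called, while TXNRD1 stays near 0.80.

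In the glutathione branch the cystine importer fell and the synthesis subunit rose slightly. SLC7A11 (chr4:138164097-138242349, minus strand), the transport subunit of the cystine and glutamate exchanger xCT, had 2685, 1053 and 2733 adjusted reads with DMSO and 1220, 1137 and 1108 with pladienolide B. DMSO replicates 1 and 3 were more than 2-fold above every treated sample, and DMSO replicate 2 was below all of them, so the groups overlapped. Over all samples the log2 fold change was -0.78 (SE 0.23, 95% interval -1.26 to -0.30, adjusted p 0.0096 by limma). Without DMSO replicate 2 it was -1.23 (SE 0.05, adjusted p 1.7e-13), and without DMSO replicate 3 it was -0.54 with an adjusted p of 0.058. The coefficient of variation was 44.3% with DMSO and 5.02% with pladienolide B, whereas no other member exceeded 15.4% in either group. The antisense gene SLC7A11-AS1 had 2 to 12 reads.

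The library that broke the DMSO group at SLC7A11 also stood apart at other genes of these pathways. Among 193 members and list genes with a mean of at least 50 adjusted reads, DMSO replicate 2 lay at least 1.5-fold from both other DMSO samples at 6. They were SLC7A11, CHAC1, SESN2, CTH, ATF3 and ALOXE3, and in all 6 it was the lowest DMSO sample. Over all genes with such a mean, this library stood apart at 77 of 13211. Pladienolide B replicate 2 stood apart in this way at FLVCR2 and GSTM2, and the other 4 libraries at none. CHAC1, an enzyme that degrades glutathione, had 828, 231 and 711 adjusted reads with DMSO and 134, 174 and 220 with pladienolide B, a log2 fold change of -1.57 (SE 0.31, limma, adjusted p 5.1e-04). The DMSO replicate 2 value was close to the treated samples, though still above them, and without it the log2 fold change was -2.15. SESN2, a stress-induced sestrin, had 1798, 781 and 1759 adjusted reads with DMSO and 913, 986 and 867 with pladienolide B, so its DMSO replicate 2 was again below every treated sample. Its log2 fold change was -0.55 (limma adjusted p 0.032), and -0.95 (adjusted p 6.5e-11) without that library. CTH, which makes cysteine from cystathionine, had 420, 263 and 456 adjusted reads with DMSO and 349, 368 and 389 with pladienolide B, a log2 fold change of 0.00 (limma adjusted p 0.99) with all samples and -0.25 (adjusted p 0.025) without DMSO replicate 2. These genes other than SLC7A11 and CHAC1 are named because of their values. Since DMSO replicate 2 was the lowest DMSO sample at all 6 genes, leaving it out had to lower their log2 fold changes. The adjusted p values without that library are therefore no separate support for a fall. What set this library apart was not tested.

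**Figure D3:**
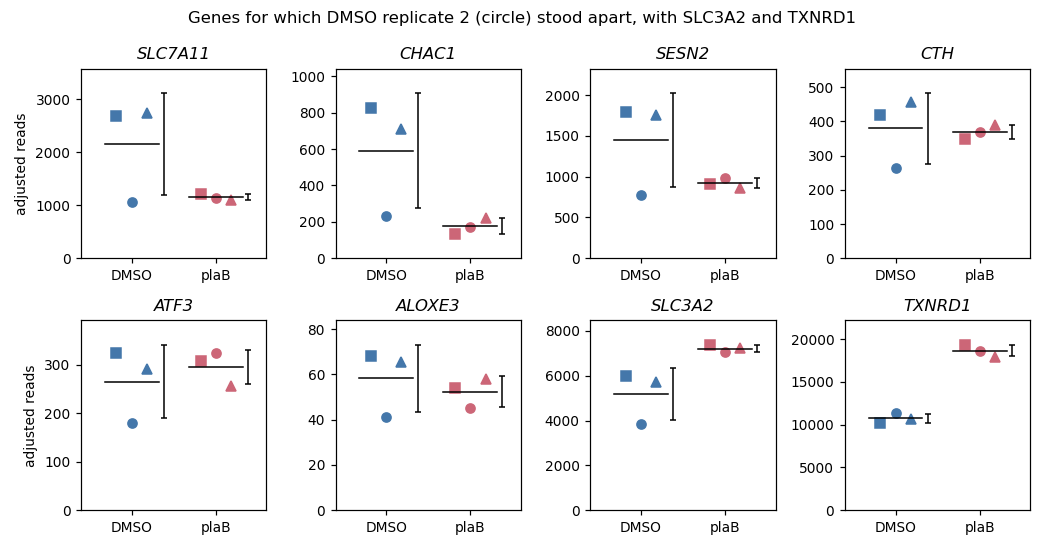
Adjusted reads (vertical axes from 0) in each sample for the 6 genes at which DMSO replicate 2 lay at least 1.5-fold from both other DMSO samples, and for SLC3A2 and TXNRD1. Squares, circles and triangles are replicates 1, 2 and 3, lines are means and bars SDs. The DMSO circle is low in the first 7 panels and not in that of TXNRD1, where it is the highest DMSO value (11329).

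SLC3A2, which encodes the heavy chain that carries SLC7A11 and other amino acid transporters to the membrane, went the other way. It had 5983, 3857 and 5699 adjusted reads with DMSO and 7361, 7052 and 7228 with pladienolide B, and the groups did not overlap. Its log2 fold change was 0.50 (SE 0.11, adjusted p 7.9e-04 by limma), and 0.30 (adjusted p 5.7e-07) without DMSO replicate 2, which was low here too. Without the variance trend the adjusted p was 0.066 for SLC3A2 and 0.059 for CHAC1.

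GCLM (chr1:93885199-93910370, minus strand), the modifier subunit of glutamate-cysteine ligase, the first enzyme of glutathione synthesis, had 2394, 2710 and 2491 adjusted reads with DMSO and 2848, 2903 and 2746 with pladienolide B. The groups did not overlap, with DMSO replicate 2 just under the lowest treated sample. The difference on the log2 scale was 0.16 (SE 0.05, 95% interval 0.06 to 0.27, adjusted p 0.013 by limma), with an adjusted p of 0.084 without DMSO replicate 1 and 0.062 without pladienolide B replicate 2. GCLC, the catalytic subunit, had 1804, 1775 and 1850 adjusted reads with DMSO and 1928, 1925 and 1912 with pladienolide B, a log2 fold change of 0.09 that was not called (adjusted p 0.13 by limma).

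GPX4 (chr19:1103994-1106779, plus strand) had 2060, 2189 and 2134 adjusted reads with DMSO and 2081, 2123 and 2150 with pladienolide B. All treated samples fell inside the DMSO range. The log2 fold change was -0.01 (SE 0.05, adjusted p 0.92 by limma), and the 95% interval of -0.10 to 0.09 bounds the change in either direction. Of all genes tested, 98.2% had a larger difference.

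Of 40 other tested genes of glutathione synthesis and use, 18 were called, 6 higher and 12 lower. These 18 were 45% of the list, beside 47.6% of all genes tested, and the list's median log2 fold change was 0.012. Without DMSO replicate 2, 10 were higher and 12 lower, when 48.4% of all genes tested were called. Besides CHAC1 the largest changes were those of CBS, the enzyme that feeds homocysteine toward cysteine, which fell from 337 ± 39.7 to 194 ± 23.9 adjusted reads (log2 fold change -0.79), GSTZ1, a glutathione transferase that acts in tyrosine breakdown, which fell from 254 ± 22.9 to 149 ± 17.4 (-0.78), and GSTCD, which fell from 544 ± 38.8 to 341 ± 13.4 (-0.67).

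For selenoprotein synthesis, on which GPX4 and TXNRD1 depend, 5 of 11 tested genes were called, 2 higher and 3 lower. The share called was 45.5%, beside 47.6% of all genes tested, and the median log2 fold change was -0.056. SECISBP2, which recruits the factors that insert selenocysteine, fell from 2089 ± 34.1 to 1372 ± 43.8 adjusted reads, a log2 fold change of -0.61 (limma, adjusted p 3.1e-08). LRP8, a receptor for selenoprotein P, fell by 0.39 and RPL30, a ribosomal protein that binds the selenocysteine insertion element, by 0.27 on the log2 scale. PSTK, the kinase that prepares the selenocysteine tRNA, had 112, 183 and 133 adjusted reads with DMSO and 189, 186 and 188 with pladienolide B, a log2 fold change of 0.42 (limma, adjusted p 0.029). The PSTK call was lost when any 1 sample other than DMSO replicate 2 was left out, with adjusted p values up to 0.16 by limma.

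In the lipid and quinone arm of ferroptosis, 20 of 39 tested genes were called, 10 higher and 10 lower. These 20 were 51.3%, beside 47.6% of all genes tested, and the median log2 fold change of the 39 genes was 0.059. The 4 named by size all fell. LPCAT3, which places polyunsaturated fatty acids into phospholipids, fell from 664 ± 35.8 to 360 ± 24.3 adjusted reads (log2 fold change -0.88, adjusted p 1e-07 by limma). AGPS, of ether lipid synthesis, fell from 2738 ± 83.4 to 1711 ± 70 (-0.68), FADS1, a fatty acid desaturase, from 5239 ± 113 to 3324 ± 30.2 (-0.66), and COQ2, of coenzyme Q synthesis, from 850 ± 59.8 to 545 ± 46.8 (-0.64). ACSL4, which activates arachidonic acid and is often used as a ferroptosis marker, was looked up after its values were known and had a log2 fold change of -0.09 (limma, adjusted p 0.064).

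Over the 7 lists, which leave out the 10 genes, 95 of 193 tested genes were called, 38 higher and 57 lower. That share, 49.2%, is close to the 47.6% of all genes tested, and CHAC1 and ALOX5, a low-level lipoxygenase gene with means of 22.2 and 9.7 adjusted reads, were the 2 that passed a 2-fold change. ALOX5 lost its call without DMSO replicate 2 (adjusted p 0.03 with all samples and 0.056 without it, by limma). It was not the only library needed, since the largest adjusted p with 1 sample left out was 0.16 by limma.

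**Figure D4:**
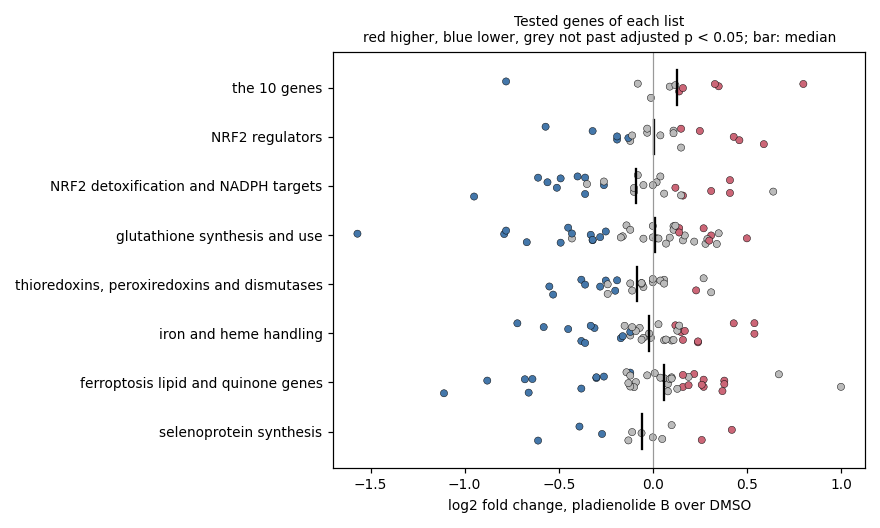
Log2 fold change (pladienolide B relative to DMSO) (horizontal axis) of each tested gene, in rows for the 10 genes and the 7 lists, with small vertical offsets to separate points. Red and blue points were called higher and lower, grey points were not called, and bars are medians. Every row holds calls in both directions, and the medians lie between -0.089 and 0.13.

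Genes whose products work together were compared by the log2 ratio of their adjusted reads in each sample. TXNRD1 over TXN was 0.35, 0.24 and 0.36 with DMSO and 1.46, 1.49 and 1.51 with pladienolide B, a difference of 1.17 (SE 0.04). SLC7A11 over SLC3A2 was -1.16, -1.87 and -1.06 with DMSO and -2.59, -2.63 and -2.70 with pladienolide B, a difference of -1.28 (SE 0.26). For SLC7A11 over SLC3A2 the DMSO replicate 2 value was the lowest of its group but above every treated sample, unlike SLC7A11 alone. FTH1 over FTL was 0.82 ± 0.05 (SD, n = 3) with DMSO and 0.61 ± 0.01 with pladienolide B, without overlap. SRXN1 over PRDX1 was -3.27 ± 0.08 and -3.10 ± 0.01, also without overlap. GCLM over GCLC was 0.48 ± 0.11 and 0.56 ± 0.04, and NFE2L2 over KEAP1 was 0.31 ± 0.14 and 0.14 ± 0.08, and in both the groups overlapped. With 3 samples against 3 the exact two-sided permutation test cannot go below 0.1, the value it gave for the 4 ratios without overlap (Benjamini-Hochberg adjusted over 6 ratios, 0.15). It gave 0.2 for NFE2L2 over KEAP1 (adjusted 0.24) and 0.4 for GCLM over GCLC (adjusted 0.4), so no ratio passed a threshold of 0.05.

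**Figure D5:**
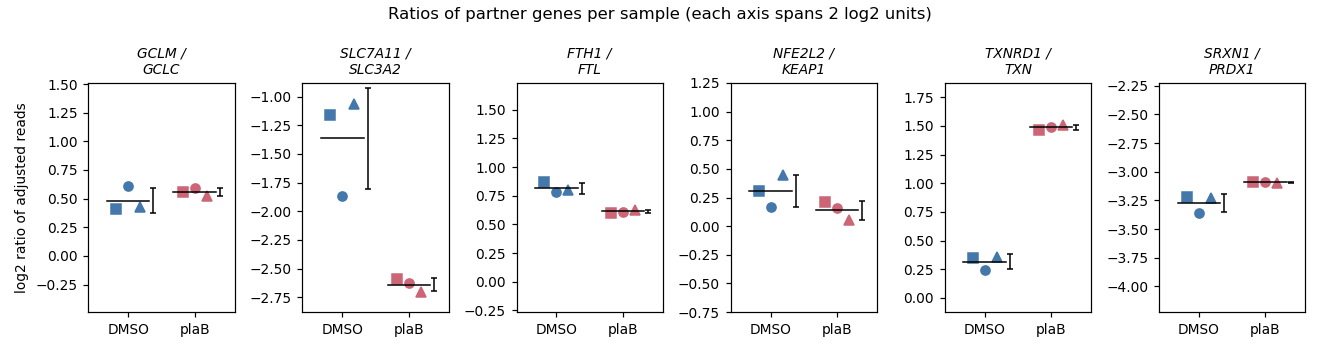
Log2 ratio of adjusted reads of 6 partner pairs in each sample (vertical axes, each spanning 2 log2 units). Squares, circles and triangles are replicates 1, 2 and 3, lines are means and bars SDs. TXNRD1 over TXN and SLC7A11 over SLC3A2 shift by more than 1 log2 unit in opposite directions, and GCLM over GCLC keeps overlapping groups.

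To compare levels between genes, recovered reads were scaled by the length of all annotated exons of each gene and by the library total, as RPKM. That length joins the exons of all annotated transcripts, 14975 bases for NFE2L2, 6710 for TXNRD1 and 2306 for HMOX1. A value is too low where the cells use shorter transcripts, which was not tested. Ranks between genes therefore depend on these lengths. Before scaling, NFE2L2 had 2496 to 3108 reads per library and HMOX1 498 to 799. On this RPKM scale FTH1 led with 665 ± 15 (SD, n = 3) in DMSO and 857 ± 30 with pladienolide B, a level that holds the uncertainty from BEST1. NQO1 at 67.3 ± 3.8 and TXNRD1 at 64.5 ± 2.5 did not differ beyond their spread with DMSO, while after treatment TXNRD1 at 115 ± 3.5 was clearly above NQO1 at 76 ± 3.3. GPX4 at 46.6 ± 0.96 and KEAP1 at 25.6 ± 1.2 followed. SRXN1 at 20.6 ± 0.38 and GCLM at 18.8 ± 0.95 lay close together, and HMOX1 at 10.5 ± 1.7, SLC7A11 at 9.05 ± 4.1 and NFE2L2 at 7.59 ± 0.63 were the lowest, with SLC7A11 within its own spread of both neighbours. After treatment SLC7A11 at 4.95 ± 0.22 was below NFE2L2 at 7.33 ± 0.13. Together the 10 genes took 0.246 to 0.256% of all reads in the DMSO libraries and 0.319 to 0.332% in the treated ones, a sum that FTH1 and TXNRD1 dominate.

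Genes that followed TXNRD1 most closely across the 6 samples, by Pearson's r of log2 values among 13210 genes with a mean of at least 50, were LRRC8A (0.9995), FOSL1 (0.999) and NCBP1 (0.9985). The samples form 2 groups that differ strongly in TXNRD1, and 169 genes had an r over 0.99, so r here mainly restates the difference between groups. LRRC8A, a subunit of volume-regulated anion channels, had a log2 fold change of 0.36, FOSL1, a subunit of the AP-1 transcription factor, of 1.04, and NCBP1, a cap-binding protein, of 0.49.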

How the data were processed

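Poly(A) RNA of 6 OVCAR8 samples was sequenced. The sources used here name HISAT2 and HTSeq 0.12.4, the submitters' processing notes give hg19 and the study's methods hg38; the positions of all 10 genes in the table overlap the same genes of GENCODE v44 (GRCh38). The deposited signal values are edgeR-adjusted counts per gene, scaled by the authors to a common library size and group by group. Inverting this adjustment gave whole reads for 100% of 96432 values of at least 10 (within 0.02) and 100% of 51711 smaller ones (within 0.1), with a largest return difference of 4.9e-05. The authors' columns of log2 fold change, p-value and q-value were not used. Because the main values are adjusted, limma 3.58.1 (variance trend, R 4.3.3) was run on log2(value + 1) over genes passing edgeR's filterByExpr (minimum 10 reads, total 15), with edgeR 4.0.16 quasi-likelihood and DESeq2 1.42.0 on recovered reads, pseudocount 0.1, other filters, no trend, a replicate block and each sample left out as alternatives. Tests were two-sided. The members and lists were chosen with earlier results of these data known. GSTT1 and TMEM189 of 246 list genes were not found under those symbols. Genes outside the 10 were named by rule: partner genes, BACH1, CUL3 and SQSTM1, the 3 genes most correlated with the member of largest log2 fold change by limma with all 6 samples (TXNRD1; by edgeR, by DESeq2 and without DMSO replicate 2 it would be SLC7A11), genes overlapping a member, and from each list up to 4 called genes of largest change with groups that do not overlap and a mean of at least 50. Others are named as picked by their values. On simulated reads for 16178 genes, limma called 90% of genes changed by 0.5 (log2) and 100% changed by 1, with 2.56% of calls false. The simulation gave every gene the same dispersion and held no library that stood apart. It changed 100 genes by each size, all with a mean of at least 50. These rates therefore need not hold for the real libraries.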

Additional observations from a re-analysis of the deposited data

How the results depend on the processing

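Over 14 alternatives, 140 values of the 10 genes gave 118 with the same direction and side of the threshold, 14 that lost a call, 4 that gained one and 4 that changed sign. The sign changes were all GPX4, at 0.00 with DESeq2, 0.02 with edgeR upper-quartile scaling, 0.01 without DMSO replicate 2 and 0.01 without pladienolide B replicate 1. With 1 sample left out GPX4 ranged from -0.03 to 0.01, and PRDX1, -0.05 with all samples, from -0.09 to 0.00. Without the variance trend, limma called 2 of the 10 genes, 2 higher and 0 lower, and 6 of the other regulators of NRF2. DESeq2 called 0 lower (SLC7A11 at -0.89, adjusted p 0.076). With 1 sample left out, between 4 and 8 of the 10 genes were called, 3 to 6 of them higher and 0 to 2 lower.

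TXNRD1 and FTH1 were called under every alternative. Samples with the same replicate number showed no shared deviation from their group means (correlations of deviations -0.018, -0.017 and 0.0026, with 0 of 3 samples best with its own number). Such correlations cannot show whether they shared a culture or day, which the labels do not state. With the replicate block 5 of the 10 genes were called, and NQO1 lost its call (adjusted p 0.054). The 3 samples a group limit what changes near the spread of these genes can be seen.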

Other observations

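These genes of the lists were picked after their values were seen and are given as values from limma. The microsomal glutathione transferases MGST1 and MGST3 and the cytosolic GSTP1 had fewer adjusted reads after pladienolide B, MGST1 falling from 1515 ± 167 to 1201 ± 19 (SD, n = 3), MGST3 from 1082 ± 38.6 to 910 ± 40.4 and GSTP1 from 11859 ± 552 to 8810 ± 99.9, the last a log2 fold change of -0.43 (adjusted p 3.1e-07). Not all transferases fell, since GSTM3 was called higher (log2 fold change 0.14, adjusted p 0.043). The fatty acid desaturases FADS2 and SCD fell by 0.30 and 0.26 on the log2 scale (adjusted p 3.3e-04 and 0.0012), while SQLE and FDFT1 of cholesterol synthesis rose by 0.26 and 0.16 (adjusted p 1.4e-04 and 0.0045), and for each of these 4 genes the groups did not overlap. ELOVL5, another fatty acid gene of that list, rose by 0.19 (adjusted p 0.0011). AIFM2, which encodes the coenzyme Q reductase FSP1, had 712 ± 39.4 adjusted reads with DMSO and 752 ± 16.9 with pladienolide B and was not called (adjusted p 0.33).

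Of the iron sensors, FBXL5, which marks IRP2 for degradation, fell from 1386 ± 70 to 1120 ± 9.34 adjusted reads (log2 fold change -0.31, adjusted p 1.8e-04), and ACO1, the gene of IRP1, rose from 2358 ± 60.4 to 2628 ± 42.3 (0.16, adjusted p 0.0077). SLC40A1, the iron exporter ferroportin, was near 0 in every sample, with 1.01 to 3.19 adjusted reads, and did not pass the filter.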
